A study of Homo sapiens with 54 samples.

Results

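LNCaP is a prostate cancer cell line that grows in response to androgen and secretes prostate-specific antigen (PSA), which made PSA in the blood of the mice a readout of tumor state. Of the 54 LNCaP xenografts of the series, 10 are described here: tumors that had relapsed on enzalutamide, a drug that blocks androgen signaling, (group ENZR) while carrying low transcript levels of cell-division genes. They were called quiet ENZR tumors and were set against all 12 tumors that were still responding to the drug (group ENZS). The members were chosen from the 15 ENZR tumors by measured values. One tumor (mouse 87) was left out because the deposited TPM values (transcripts per 1000000 transcripts) of its human genes summed to 12.1% of the full 1000000, below the limit of 300000, and then the 4 tumors with the highest mean log2(TPM + 1) of MKI67, TOP2A, BIRC5 and UBE2C were removed, which left 10.

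All tumors came from 1 cell line grown under the skin of male NOD-SCID mice, which lack functional B and T lymphocytes and so give a model without an adaptive immune response. PRE-CX mice (n = 9) had mock surgery and kept their testes, and their tumors were taken at 1000 mm3. All other mice were castrated when tumors reached about 200 mm3. POST-CX tumors (n = 8, of which 7 were used) were taken 1 week after castration, at the lowest PSA, and CRPC tumors (n = 10) after PSA or tumor size had recovered on castration alone. ENZS and ENZR mice were castrated, received enzalutamide at 10 mg/kg by oral gavage on 5 days a week from the rise of PSA onward, and were still on the drug at collection. ENZS tumors were taken at the lowest PSA on the drug, and ENZR tumors when PSA had returned to its level before enzalutamide or when the tumor reached 1000 mm3. Mice were 5 to 6 weeks old at the start. Each tumor is 1 mouse, and the messenger RNA was measured in bulk, so fewer cells of a type and less RNA per cell cannot be told apart.

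Androgens switch on genes of prostate cells such as KLK3, which encodes PSA, KLK2, TMPRSS2 and FKBP5. Castration removes most of the androgen and enzalutamide blocks the response to it, so that both treatments lower these genes and slow cell division. Relapse under such drugs is classically described as the return of androgen-driven transcription, as a switch to the glucocorticoid receptor NR3C1, which shares many target sites, or as a loss of the luminal prostate identity.

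The promoters of 3 transcripts that recur in the results are printed because the half-site of the androgen response element (AGAACA, searched on both strands, so also as TGTTCT) could be looked up in them. Each runs from 250 bases before to 50 bases after the RefSeq gene start in GRCh38.p14, on the plus strand, and capitals mark the half-site. KLK3 lies at chr19:50854915-50860764 and its window at chr19:50854665-50854964. KLK2, its neighbor and near copy, lies at chr19:50873439-50880567 with the window chr19:50873189-50873488. LINC00844, a long non-coding RNA, lies at chr10:58999518-59001617 with the window chr10:58999268-58999567.
KLK3: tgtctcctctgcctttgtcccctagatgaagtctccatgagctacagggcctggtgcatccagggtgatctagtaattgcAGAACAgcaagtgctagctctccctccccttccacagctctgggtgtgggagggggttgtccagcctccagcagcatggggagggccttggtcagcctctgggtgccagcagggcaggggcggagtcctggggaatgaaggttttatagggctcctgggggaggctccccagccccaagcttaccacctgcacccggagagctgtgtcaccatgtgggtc
KLK2: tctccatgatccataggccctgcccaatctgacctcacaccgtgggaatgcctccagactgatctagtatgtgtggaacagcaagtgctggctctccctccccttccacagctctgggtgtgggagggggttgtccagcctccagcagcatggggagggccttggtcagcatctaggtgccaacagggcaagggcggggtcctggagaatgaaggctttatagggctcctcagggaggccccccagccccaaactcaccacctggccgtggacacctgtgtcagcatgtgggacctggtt
LINC00844: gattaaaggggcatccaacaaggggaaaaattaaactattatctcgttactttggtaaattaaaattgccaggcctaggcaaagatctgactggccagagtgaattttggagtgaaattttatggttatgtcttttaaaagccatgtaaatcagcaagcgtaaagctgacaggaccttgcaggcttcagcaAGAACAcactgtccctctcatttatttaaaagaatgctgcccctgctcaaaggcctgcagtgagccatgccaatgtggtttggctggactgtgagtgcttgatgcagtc
The half-site occurred once in the KLK3 and LINC00844 windows and had no exact match in that of KLK2. It was present in 14.8% of the 35116 RefSeq windows of this length and in 3 of the 17 windows found for the androgen-induced genes tested here, so the match is a description of these letters only.

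In the 10 quiet ENZR tumors, the deposited TPM of human genes summed to 66.7% to 94.5% of 1000000 (median 86.6%), against 70.8% to 95.5% (median 89.3%) in the 12 ENZS tumors. The mean difference was -4.11 percentage points and was within the spread between tumors (two-sided permutation test with 100000 resamples, p = 0.234). All values below were rescaled so that the human genes of each tumor summed to 1000000, and "TPM" means this rescaled value. The label of the cells was checked with luminal prostate markers: the median TPM in quiet ENZR and ENZS tumors was 373 and 368 for KRT8, 390.0 and 418 for KRT18, 1793 and 2090 for FOLH1 and 218 and 196 for HOXB13. Human genes with names of stroma and vessel markers summed to 58.1 to 99.1 TPM (median 82.5) in quiet ENZR tumors and to 34.9 to 318 TPM (median 70.3) in ENZS tumors, and 10 of these 21 markers stayed under 1 TPM in every quiet tumor. The 22 blood and immune markers summed to 2.89 to 16.7 TPM and 2.65 to 14.6 TPM, with 20 and 19 of them under 1 TPM in every tumor of the group, and 7 and 6 of them at 0. The part of other cells in the results was not tested.

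The marker level that chose the members ran from 0.64 (mouse 98) to 3.61 (mouse 72) in quiet ENZR tumors, with a median of 2.68 on the log2(TPM + 1) scale. The next tumor outside was mouse 100 at 3.92, and the 4 tumors removed reached 4.91. ENZS tumors ran from 0.41 to 3.93 with a median of 2.06. The removal did not make the quiet tumors lower than the responders: 7 of 10 lay above the ENZS median, while 1 ENZS tumor (mouse 45) lay above every quiet tumor and above the lowest one removed. CRPC tumors began at 3.77. Per gene, the median TPM in quiet ENZR and ENZS tumors was 2.59 and 1.71 for MKI67, which marks dividing cells, 5.29 and 3.15 for the topoisomerase TOP2A, 6.86 and 3.52 for the mitotic survivin gene BIRC5 and 9.35 and 5.01 for UBE2C, which drives mitotic exit. Because the rule used these 4 genes, their values and those of other cell-cycle genes are given as a description. They were fitted with all genes below, but no result is read from their p. The rule took out the highest ENZR tumors, so it lowered the quiet group and did not make it higher than ENZS. Of 52 mitosis genes measured above the filter, 51 had a positive log2 difference between quiet ENZR and ENZS tumors (median 0.30, range -0.05 to 0.55), and 33 of 42 DNA replication genes did (median 0.08).

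**Figure D1:**
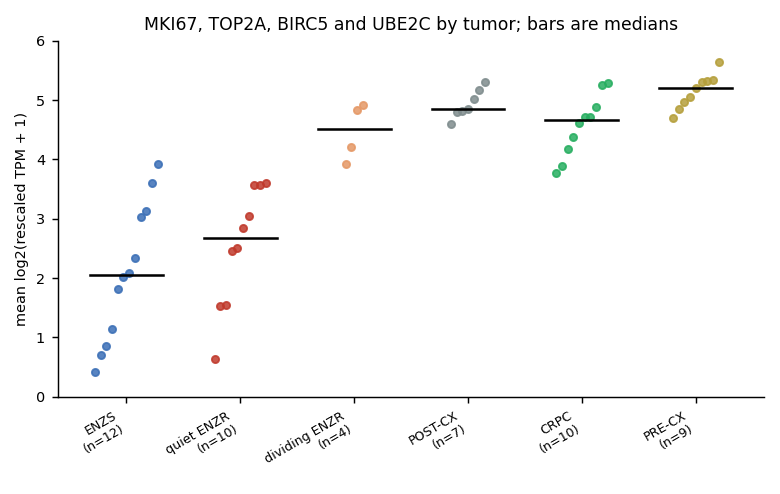
Mean log2(rescaled TPM + 1) of MKI67, TOP2A, BIRC5 and UBE2C (vertical axis) in each tumor, by group; each point is a tumor and each bar a group median. Quiet ENZR tumors (0.64 to 3.61) spread over the same range as ENZS tumors (0.41 to 3.93), and the 4 dividing ENZR tumors that were left out lie with the CRPC tumors.

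The main question was which genes outside cell division set a quiet relapse apart from a response. Across the 16258 genes with at least 1 TPM in at least 10 of the 22 tumors, none did: with limma on log2(TPM + 1), 0 genes had a Benjamini-Hochberg adjusted p under 0.05, hence the called share (adjusted p below 0.05 together with a change of at least 1 log2 unit either way) was 0%. The lowest adjusted p was 0.954, and 745 genes (4.58%) had an unadjusted p under 0.05, where 5% would be found with no difference at all. Linked genes had an absolute r of at least 0.6 with the 4 markers over 26 PRE-CX, POST-CX and CRPC tumors, centred in each group. They and the genes of the cell-cycle lists made up 942 of the tested genes and were set aside. Of the other 15316, 2.69% were higher and 1.94% lower at an unadjusted p under 0.05, and their median log2 difference was 0.03.

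For most genes the data were precise enough to bound the difference. The 95% interval of the difference in log2(TPM + 1) lay inside -1 to 1 for 14741 of the 15316 genes (96.2%), with a median width of 0.27 to either side. For no gene did it lie wholly beyond -1 or 1. For the other 575 genes the interval reached past -1 or 1 in at least 1 direction. The added 1 TPM shrinks the differences of low genes, so for these -1 to 1 is a wider bound than a 2-fold change in TPM. No gene had all quiet ENZR tumors above all ENZS tumors, and no gene had all of them below. The spread within the groups was alike, with a median SD of 0.30 on the log2 scale in quiet ENZR tumors and 0.29 in ENZS tumors. No gene was called in any of the 22 fits that left out 1 tumor, in which 518 to 1167 genes had an unadjusted p under 0.05 and the lowest adjusted p was 0.289.

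KLK3 had a lower median in the quiet relapsed tumors than in the responders, without passing the test. It ran from 323 TPM (mouse 72) to 2643 TPM (mouse 21) with a median of 925 in quiet ENZR tumors, and from 232 TPM (mouse 49) to 4693 TPM (mouse 106) with a median of 2803 in ENZS tumors. All 10 quiet tumors lay below the ENZS median and 7 ENZS tumors lay above every quiet tumor, but 1 ENZS tumor lay below all of them, so the groups overlapped. The log2 difference was -0.97 ± 0.43 (SE; unadjusted p = 0.0316, adjusted p = 0.960 in limma), and it ranged from -1.26 to -0.79 as single tumors were left out. The 4 dividing ENZR tumors that the rule removed ran from 1231 to 6704 TPM (median 5055), and with them included the log2 difference was -0.44, so the gap in KLK3 depended in part on which relapsed tumors were taken. KLK2, a kallikrein that shares sequence with KLK3, so that reads of the pair may be split between them, had medians of 50.9 TPM in quiet ENZR and 137 TPM in ENZS tumors (log2 difference -0.62 ± 0.43), and with all 14 ENZR tumors of adequate total its sign turned to 0.08.

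FKBP5, a co-chaperone of steroid receptors that both androgens and glucocorticoids induce, was spread less in the quiet tumors than in the responders. Quiet ENZR tumors ran from 9.63 to 19.9 TPM (median 11.9) and ENZS tumors from 10.3 to 55.2 TPM (median 18.99), with 5 ENZS tumors above every quiet one. The 4 dividing ENZR tumors that the rule removed ran from 15.3 to 112 TPM, so the narrow spread is that of the chosen tumors and not of all relapsed ones. The log2 difference was -0.70 ± 0.23 (unadjusted p = 0.00476, adjusted p = 0.960 in limma), and -0.30 (unadjusted p = 0.325) with all 14 ENZR tumors. For scale, the FKBP5 median was 152 TPM in PRE-CX, 35.4 TPM in POST-CX and 29.9 TPM in CRPC tumors. TMPRSS2, the androgen-driven membrane protease, spread less in quiet ENZR tumors (90.7 to 149 TPM) than in ENZS tumors (69.9 to 430.2 TPM). Here too the 4 removed ENZR tumors reached higher, from 122 to 412 TPM. The log2 difference of TMPRSS2 was -0.48 ± 0.26, or -0.24 with all 14 ENZR tumors.

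PMEPA1, an androgen- and TGF-beta-induced membrane adaptor, led the androgen-induced genes by p. It ran from 19.9 to 59.2 TPM (median 31.9) in quiet ENZR tumors and from 29.0 to 129 TPM (median 55.9) in ENZS tumors; 4 quiet tumors lay below every ENZS tumor. The log2 difference was -0.80 ± 0.22 (unadjusted p = 0.00144, adjusted p = 0.960 in limma). ZBTB16, a transcription factor induced by androgens and by glucocorticoids, had a log2 difference of -0.52 ± 0.20, and ACPP, which encodes the secreted prostatic acid phosphatase, one of -0.69 ± 0.27.

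Over the whole androgen-induced list, 25 of 30 genes were tested, 0 were called, and 8 were lower and 0 higher at an unadjusted p under 0.05. That is to be read beside the 1.94% of all unlinked genes that were lower. The differences were negative for 24 of the 25, with a median of -0.40 against 0.03 for all genes, and stayed near it with the deposited values (-0.47) and with median centring (-0.43). The mean log2 level of the list ran from 5.00 to 5.82 (median 5.58) in quiet ENZR tumors and from 5.20 to 6.60 (median 5.91) in ENZS tumors, and all 10 quiet tumors lay below the ENZS median. The list's median was -0.28 with all 14 ENZR tumors. The genes share 1 regulator and the same 22 tumors, and were chosen with earlier results of these data known, so their common sign is not a count of independent results.

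Non-coding transcripts of the prostate gave wide gaps in a few members, none of which passed the test over all genes. LINC00844 ran from 0.47 to 5.16 TPM (median 2.37) in quiet ENZR tumors and from 0.96 to 46.5 TPM (median 9.40) in ENZS tumors. All 10 quiet tumors lay below the ENZS median and 8 ENZS tumors lay above every quiet one, with a log2 difference of -1.64 ± 0.50 (unadjusted p = 0.00288, adjusted p = 0.960 in limma), or -1.003 with all 14 ENZR tumors. PART1 (chr5:60487713-60547657), a prostate androgen-regulated transcript, ran from 1.501 to 5.41 TPM (median 2.63) against 2.79 to 17.0 TPM (median 6.30). Its log2 difference was -0.93 ± 0.22 (unadjusted p = 0.000381), the lowest p among the 8 leading falls named below, and 6 quiet tumors lay below every ENZS tumor. ARLNC1, a prostate non-coding RNA, was low in both groups (medians 0.67 and 1.49 TPM) and had a log2 difference of -0.55 ± 0.24, or -0.27 with all 14 ENZR tumors. Of 12 tested members of that list 3 were lower at an unadjusted p under 0.05 and 0 higher, beside 1.94% of all unlinked genes lower, and the list's median was -0.01; DRAIC, its next member by p, had a log2 difference of 0.12 ± 0.13.

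**Figure D2:**
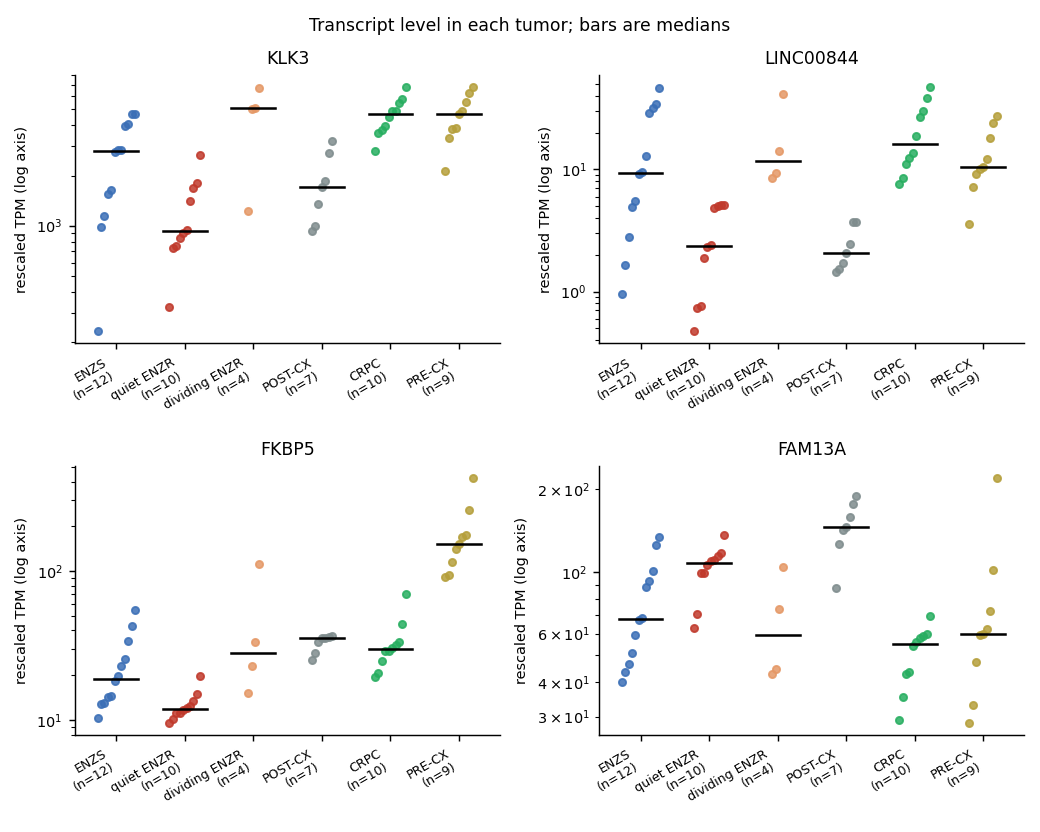
Rescaled TPM (log axis) of KLK3, LINC00844, FKBP5 and FAM13A in each tumor, by group; each point is a tumor and each bar a group median. In quiet ENZR tumors KLK3 (median 925) and LINC00844 (median 2.37) lie toward the lower part of the ENZS range, with overlap in every panel. All CRPC tumors lie above all POST-CX tumors for LINC00844, and the groups overlap for KLK3.

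The other routes to relapse that the list of steroid receptors and hormone genes covers showed no called gene. NR3C1 ran from 0.50 to 15.3 TPM (median 4.74) in quiet ENZR and from 1.497 to 10.8 TPM (median 3.54) in ENZS tumors (log2 difference 0.17, 95% interval -0.50 to 0.84). Both medians lay above that of CRPC tumors (0.63 TPM), a difference between arms that was not tested. The mineralocorticoid receptor NR3C2 and the progesterone receptor PGR, the other 2 steroid receptors lowest in p, had log2 differences of -0.35 ± 0.19 and 0.38 ± 0.24, and 0 of 16 steroid receptor genes had an unadjusted p under 0.05. Among 16 tested glucocorticoid-induced genes 2 were lower and 0 higher, the same FKBP5 and ZBTB16, with a list median of 0.04. In androgen synthesis 2 of 12 were lower. This count and that of the glucocorticoid-induced genes stand beside 1.94% of all unlinked genes lower. The 2 were the steroid sulfatase STS (-0.32 ± 0.12) and SULT2B1, a sulfotransferase for cholesterol and related steroids. SULT2B1 had medians of 2.23 and 5.42 TPM (log2 difference -0.89 ± 0.22, unadjusted p = 0.0004 in limma).

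Androgen-repressed genes, which rise when androgen signaling is blocked, held no called gene either. DDC, the aromatic amino acid decarboxylase, had medians of 534 TPM in quiet ENZR and 485 TPM in ENZS tumors (log2 difference 0.16, 95% interval -0.52 to 0.85), and OPRK1, the kappa opioid receptor, medians of 107 and 178 TPM (-0.06, interval -0.84 to 0.72). AOC1, an amine oxidase that breaks down polyamines, followed the division markers inversely and is described only, with medians of 107 and 175 TPM. In PRE-CX tumors the medians of DDC, OPRK1 and AOC1 were 3.88, 0.94 and 0.34 TPM. Of 15 tested genes of the androgen-repressed list 0 were higher and 1 lower at an unadjusted p under 0.05, beside 1.94% of all unlinked genes lower. The 1 was BCHE, the plasma cholinesterase, at -1.45 ± 0.59. The insulin receptor adaptor GRB10 had a log2 difference of 0.40 ± 0.25, which turned to -0.11 with all 14 ENZR tumors.

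No gene of the identity lists was called. Of 26 neuroendocrine genes only 5 passed the filter, and none had an unadjusted p under 0.05; the synaptic vesicle gene SYP had medians of 2.04 and 2.41 TPM and the Notch ligand DLL3 of 1.89 and 2.21 TPM. In the basal and mesenchymal list 7 of 21 passed the filter, 0 of them at an unadjusted p under 0.05, with log2 differences of -0.54 ± 0.27 for TWIST1, a mesenchymal transcription factor, and 0.27 ± 0.21 for the integrin ITGB4. The 20 luminal genes tested had a median of -0.03, and none of them had an unadjusted p under 0.05.

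The genes that led each direction by p, whatever their function, had log2 differences between -1.41 and 0.96, and each had an adjusted p of 0.954 or 0.960. Among the 8 leading rises, GPR63 (chr6:96794125-96837477), an orphan G-protein-coupled receptor, ran from 5.52 to 26.0 TPM (median 15.7) in quiet ENZR and from 3.82 to 13.4 TPM (median 6.34) in ENZS tumors. Its log2 difference was 0.96 ± 0.23 (unadjusted p = 0.000261), or 0.45 with all 14 ENZR tumors, and 5 quiet tumors lay above every ENZS tumor. LINC01001 had 7 of 10 quiet tumors above the ENZS range at a log2 difference of only 0.39 ± 0.11, and WDR31, a WD-repeat gene, had 7 at 0.47 ± 0.13. RSPH1, a radial spoke protein of motile cilia, had a log2 difference of 0.73 ± 0.19, which fell to 0.58 without mouse 72, its highest tumor at 52.7 TPM. The other rises were VPS51, a subunit of an endosome-to-Golgi tethering complex (0.28 ± 0.07), the non-coding AC002064.2 (0.76 ± 0.20), the zinc-finger gene ZNF276 (0.61 ± 0.16) and the sugar-phosphate transporter SLC37A1 (0.34 ± 0.10). With all 14 ENZR tumors RSPH1, VPS51 and SLC37A1 stood at 0.48, 0.12 and 0.20.

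The 8 leading falls comprised PART1, SULT2B1 and PMEPA1 above and 5 genes of other roles. GPR137B, a lysosomal membrane protein, ran from 18.8 to 52.2 TPM (median 35.3) in quiet ENZR and from 39.98 to 84.98 TPM (median 43.96) in ENZS tumors. There 8 of 10 quiet tumors lay below the lowest ENZS tumor, yet the remaining 2 lay above the ENZS median, and the log2 difference was -0.54 ± 0.15 (unadjusted p = 0.00142). ANKH, an exporter of ATP and pyrophosphate, had medians of 60.9 and 102 TPM (-0.72 ± 0.18), and 6 quiet tumors lay below all ENZS tumors. KLHL1, an actin-binding kelch protein known from neurons, had medians of 1.64 and 5.34 TPM (-1.41 ± 0.37), the largest of the 16 leading differences. The nuclear membrane gene SUN2 (-0.40 ± 0.11) and the orphan receptor GPR158 (-0.68 ± 0.19) completed them. All 16 kept their sign in every alternative run.

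**Figure D3:**
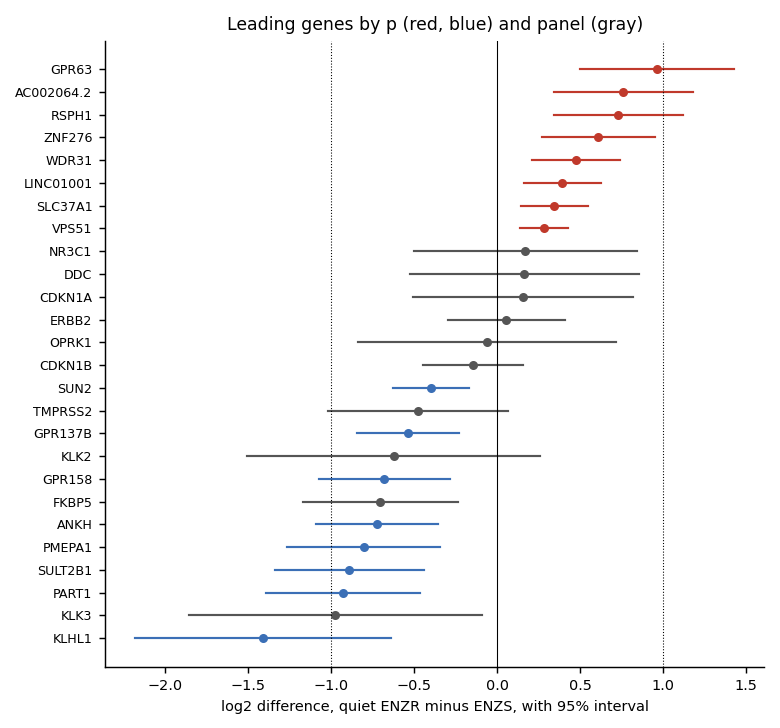
Log2 difference between quiet ENZR and ENZS tumors (horizontal axis, points) with its 95% interval (lines) for the 8 leading rises (red), the 8 leading falls (blue) and the panel genes not linked to cell division (gray). The intervals of ERBB2, DDC and NR3C1 lie across 0, while KLK3 (-0.97) and the leading falls lie to the left, and dotted lines mark -1 and 1.

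Growth-factor receptors and cell-cycle brakes held no called gene. ERBB2, the HER2 receptor, ran from 161 to 249.8 TPM in quiet ENZR and from 93.9 to 307 TPM in ENZS tumors (log2 difference 0.05, 95% interval -0.30 to 0.41). Of 10 tested ERBB receptors and ligands 2 were lower at an unadjusted p under 0.05, beside 1.94% of all unlinked genes lower. They were the ligands TGFA (-0.26 ± 0.10) and NRG4 (-0.63 ± 0.25). CDKN1A and CDKN1B, the p21 and p27 inhibitors of cyclin-dependent kinases, had log2 differences of 0.16 ± 0.32 and -0.14 ± 0.15. CCND1, cyclin D1, belongs to the cell-cycle genes and had medians of 91.1 and 98.1 TPM. In the list of quiescence genes 0 of 27 had an unadjusted p under 0.05, and the 2 lowest in p, BTG1 and FOXO3, had -0.62 ± 0.34 and 0.23 ± 0.14.

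In the insulin and IGF list, 2 of 16 genes were higher and 1 lower at an unadjusted p under 0.05. Of all unlinked genes 2.69% were higher and 1.94% lower. TXNIP, which restrains glucose uptake, had medians of 451 TPM in quiet ENZR and 351 TPM in ENZS tumors (0.45 ± 0.15, unadjusted p = 0.00554). SESN1, a stress-induced inhibitor of mTOR signaling and a p53 target, had medians of 245 and 160.4 TPM (0.65 ± 0.24). IGF1R, the receptor of insulin-like growth factor 1, was low in both groups, with medians of 1.51 and 2.26 TPM (-0.63 ± 0.24). The p53 list held 3 higher and 0 lower of 24 genes, beside the same shares, and 2 of the 3 were linked to the markers. Its next unlinked members TP53I3 and BAX had 0.37 ± 0.18 and 0.27 ± 0.15.

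Among metabolic lists, fatty acid oxidation had 4 of 19 genes higher and 0 lower at an unadjusted p under 0.05, beside 2.69% of all unlinked genes higher. These were both subunits of the mitochondrial trifunctional protein, HADHA (medians 138 and 113 TPM; 0.26 ± 0.09) and HADHB (0.18 ± 0.08), the first dehydrogenase of long-chain oxidation ACADVL (0.25 ± 0.11) and the carnitine transferase CPT2 (0.23 ± 0.11). The list's median was 0.11, and 0.05 with all 14 ENZR tumors, where ACADVL stood at 0.13 and HADHB at 0.03. In fatty acid synthesis 2 of 19 were higher and 3 lower, beside 2.69% and 1.94% of all unlinked genes. They were led by the elongase ELOVL7 with medians of 9.12 and 12.5 TPM (-0.84 ± 0.27, unadjusted p = 0.0043 in limma) and THRSP, a lipogenic regulator (0.41 ± 0.15). Hypoxia and glycolysis genes had a median of 0.15 with 22 of 28 positive, yet none at an unadjusted p under 0.05; CA9, the carbonic anhydrase of hypoxic cells, spread from 0.05 to 31.6 TPM in quiet ENZR and from 0 to 10.3 TPM in ENZS tumors.

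Smaller groups followed. Of 27 primary cilium and microtubule genes 3 were higher and 0 lower at an unadjusted p under 0.05, beside 2.69% of all unlinked genes higher. They were the ciliary transport genes IFT172 (0.37 ± 0.13), IFT140 (0.39 ± 0.16) and BBS1 (0.27 ± 0.12). With all 14 ENZR tumors IFT140 stood at 0.17 and BBS1 at 0.07, and the list's median of 0.08 turned to -0.01. In the unfolded-protein response 1 of 21 was lower, the chaperone cofactor DNAJB9 (-0.44 ± 0.20), with HSPA5, the main chaperone of the endoplasmic reticulum, at -0.26 ± 0.13. Among 16 polyamine genes the oxidase SMOX (-0.24 ± 0.10) and the arginase ARG2 (-0.68 ± 0.31) were lower at that p. These counts, and those of the stroma markers next, stand beside 1.94% of all unlinked genes lower and 2.69% higher at that p. Of the 7 tested stroma markers the collagen COL3A1 was higher (1.15 ± 0.45, or 0.66 with all 14 ENZR tumors) and the matrix proteoglycans LUM (-1.42 ± 0.65) and DCN (-1.10 ± 0.54) lower at that p, so their directions were mixed. Of 47 lists with at least 5 tested genes outside cell division, 45 had a median within 0.2 of 0, and only the androgen-induced (-0.40) and acute-phase lists (-0.23, 7 genes) lay beyond.

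**Figure D4:**
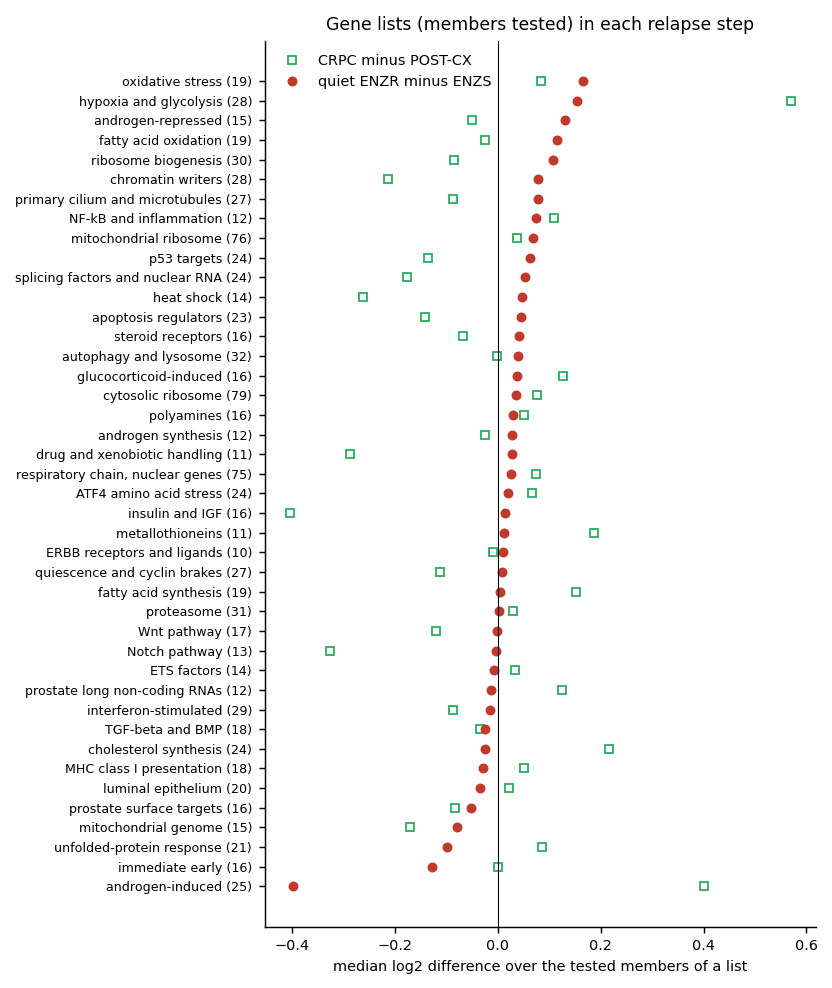
Median log2 difference over the tested genes of each list with 10 or more tested genes (horizontal axis), for quiet ENZR minus ENZS (red circles) and CRPC minus POST-CX (green squares); numbers in brackets are the genes tested. The androgen-induced list stands at -0.40 in the enzalutamide step and at 0.40 in the castration step.

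To ask whether quiet relapse on enzalutamide resembled relapse on castration alone, the difference of quiet ENZR from ENZS was compared with that of CRPC from POST-CX, which shares no tumor with it. The castration step called 34 of 15091 genes (0.225%), 13 higher and 21 lower in CRPC tumors, against 18 and 11 with the deposited values and 29 and 16 with median centring. The count lay between 15 (without POST-CX mouse 44 or 86) and 52 (without CRPC mouse 29) as single tumors were left out. Of the 29 of these that were also tested in the enzalutamide step, 4 had an unadjusted p under 0.05 there. Over all genes tested in that step the share was 4.58%. The count takes no account of direction, so it is not a count of genes that moved alike. LINC00844 (2.54 in the castration step and -1.64 in the enzalutamide step), KLK3 (1.44 and -0.97) and FAM13A (-1.52 and 0.50) were among them with opposite signs. The androgen-induced list had a median of 0.40 in the castration step, with KLK3 higher in CRPC by 1.44 ± 0.23 (adjusted p = 0.00412 in limma). KLK3 encodes PSA, and the tumors were collected by PSA in the blood, at its lowest or after its recovery. The KLK3 tests, in each step and in the difference of steps, are therefore not independent of the collection. The androgen-induced genes share 1 regulator, so this limit may extend to them and to other androgen-regulated transcripts.

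The difference between the 2 steps, tested gene by gene in 1 fit of the 4 groups, called 45 of 16853 genes, 22 in which the enzalutamide step was the higher one (0.131%) and 23 in which it was the lower one (0.136%). The median over all genes was 0.10 in favor of the enzalutamide step, and it was -0.05 with the deposited values and -0.04 with median centring. With these scalings the split of calls moved to 4 higher and 32 lower and to 9 higher and 52 lower, so the balance of directions depends on the scaling. The count ranged from 13 without POST-CX mouse 66 or 92 to 88 without POST-CX mouse 48, and 20 of 39 such omissions moved it by more than 1.5 times.

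Of the genes named, LINC00844 had the largest difference. It ran from 7.59 to 47.6 TPM (median 16.3) in CRPC and from 1.45 to 3.74 TPM (median 2.05) in POST-CX tumors, so that it rose with castration relapse by 2.54 ± 0.32 on the log2 scale (adjusted p = 0.000514 in limma), while it was 1.64 lower on average in the enzalutamide step. The difference of the steps was -4.19 ± 0.66 (adjusted p = 0.000912), and it was called in all 39 fits that left out a tumor. With all 14 ENZR tumors in place of the quiet ones it was -3.55 (adjusted p = 0.0160).

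KLK3 was also higher in CRPC than in POST-CX tumors, with 1 POST-CX tumor (mouse 48) above the lowest CRPC tumor. CRPC tumors ran from 2825 to 6828 TPM (median 4690) and POST-CX tumors from 935 to 3203 TPM (median 1709), and the difference of the steps was -2.42 ± 0.55 (adjusted p = 0.0311 in limma). It was called in 32 of 39 fits that left out a tumor, with adjusted p between 0.00098 and 0.0630, but not without the filter on low values (adjusted p = 0.0745) and not with all 14 ENZR tumors (-1.88, adjusted p = 0.112). The KLK3 call was thus made with the quiet tumors and not with the 4 dividing tumors added. KLK4, the neighboring kallikrein, which the rule for named genes did not pick and which was named after its values were seen, differed by -1.20 ± 0.30 (adjusted p = 0.0447), and PART1 by -1.24 ± 0.32 (adjusted p = 0.0487). Neither was called with all 14 ENZR tumors (adjusted p = 0.0618 and 0.125) or without the filter on low values (adjusted p = 0.0887 and 0.101 in limma). PART1 was called in 12 of 39 fits that left out a tumor. It was not called with a filter at 5 TPM (adjusted p = 0.0505) or in one fit of all groups (adjusted p = 0.0689).

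The other 3 genes with the largest negative differences were GRIN3A, a subunit of NMDA glutamate receptors (-3.04 ± 0.75), the non-coding AL589986.2 (-2.14 ± 0.53, adjusted p = 0.0447 in limma) and the non-coding GAPLINC (-2.12 ± 0.46, adjusted p = 0.0254). GRIN3A ran from 2.57 to 19.7 TPM in CRPC tumors and from 0.04 to 3.85 TPM in quiet ENZR tumors, where it was too low to be tested against ENZS alone (medians 0.55 and 0.98 TPM). Its difference of steps is a description, since the castration step (2.26 ± 0.31) is most of it. AL589986.2 was called in 18 of 39 fits that left out a tumor and GAPLINC in 38. With all 14 ENZR tumors GRIN3A and AL589986.2 were not called (adjusted p = 0.211 and 0.156 in limma), whereas GAPLINC was (-2.02, adjusted p = 0.0225).

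In the other direction, FAM13A (chr4:88725960-89057185), linked to lung function and fat metabolism, had the lowest adjusted p. It ran from 62.8 to 136 TPM (median 108) in quiet ENZR, from 40.1 to 134 TPM (median 67.9) in ENZS, from 29.3 to 69.4 TPM (median 55.2) in CRPC and from 87.8 to 189 TPM (median 146) in POST-CX tumors. It was lower in CRPC than in POST-CX tumors by -1.52 ± 0.17 on the log2 scale (adjusted p = 0.000162), stood 0.50 ± 0.19 higher in quiet ENZR than in ENZS tumors (unadjusted p = 0.0175), and differed between the steps by 2.02 ± 0.28 (adjusted p = 0.000142 in limma). It was called in all 39 fits that left out a tumor, and with all 14 ENZR tumors it was 1.82 (adjusted p = 0.0013).

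BCAP31P1, a pseudogene whose reads may belong in part to its parent gene BCAP31, differed by 2.83 ± 0.49 with medians of 15.7 TPM in POST-CX, 1.74 TPM in CRPC, 0.62 TPM in quiet ENZR and 0.30 TPM in ENZS tumors, and it was too low to be tested in the enzalutamide step alone. Its difference of steps is a description too, since its medians under enzalutamide were below 1 TPM and the castration step was -2.51 ± 0.45. NUDT8, a mitochondrial nudix hydrolase, differed by 1.74 ± 0.39 (adjusted p = 0.0308 in limma) with medians of 55.4 TPM in POST-CX and 18.8 TPM in CRPC tumors against 15.7 and 10.9 TPM in quiet ENZR and ENZS tumors. GPR63 differed by 1.57 ± 0.35 (adjusted p = 0.0311) and ACKR3, a scavenging receptor of the chemokine CXCL12, by 1.56 ± 0.41 (adjusted p = 0.0488). With all 14 ENZR tumors NUDT8 and ACKR3 stayed called (adjusted p = 0.0345 and 0.0352) and GPR63 did not (adjusted p = 0.215). With the deposited values NUDT8, GPR63 and ACKR3 were not called (adjusted p = 0.0514, 0.0736 and 0.165 in limma). ACKR3 also lost its call with median centring (adjusted p = 0.0560) and in one fit of all groups (adjusted p = 0.174). ACKR3 was called in 12 of 39 fits that left out a tumor, GPR63 in 32 and NUDT8 in 36.

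**Figure D5:**
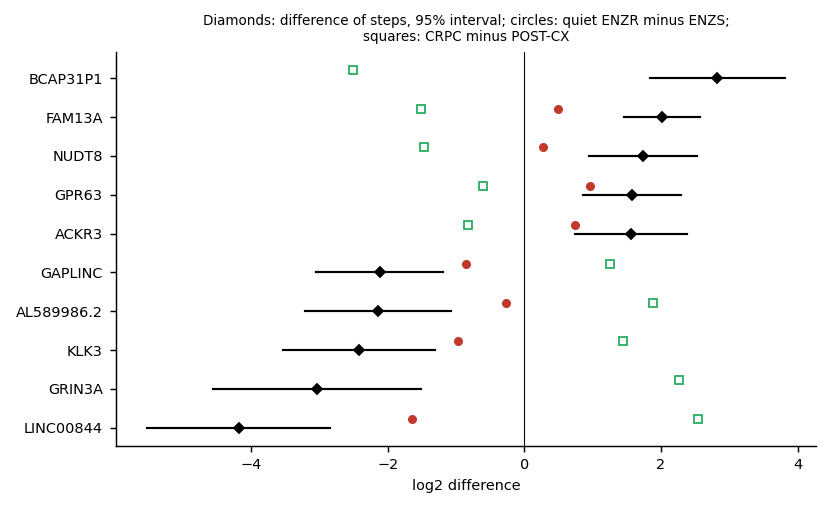
For the 10 genes with the largest called difference between the relapse steps, the difference (black diamonds) with its 95% interval (lines), and the step itself for quiet ENZR minus ENZS (red circles) and CRPC minus POST-CX (green squares), all as log2 differences on the horizontal axis. LINC00844 (-4.19) and BCAP31P1 (2.83) mark the ends; circles are missing for GRIN3A and BCAP31P1, which were too low in quiet ENZR and ENZS tumors to be tested there.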

How the data were processed

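The authors checked the reads (FastQC 0.11.9) and trimmed them (Trim Galore 0.6.5). They aligned the reads with STAR 2.7.2b to human and mouse genomes and deposited RSEM 1.3.3 TPM per gene, with coordinates on GRCh38. The number of reads per gene is not in a TPM value, so depth per gene is unknown. Human genes were rescaled to a sum of 1000000 per tumor and set to log2(TPM + 1), so differences of low genes are understated. Genes with at least 1 TPM in 10 tumors of a comparison were tested with limma 3.58.1 (trended empirical Bayes, two-sided, Benjamini-Hochberg adjustment over all genes tested), and the code was tested on simulated data. POST-CX mouse 91 and ENZR mouse 87 fell below the limit of the total. The members and the gene lists were chosen with earlier results of these data known. Named genes were a panel of 12 (1 further gene is not reported here), the 8 lowest unadjusted p per direction at a mean of 5 TPM or more, the members of each list lowest in p, and the 5 called genes per direction with the largest difference between the steps. Coordinates and promoters are RefSeq's (GRCh38.p14). Nothing in the labels says more than that each tumor came from its own mouse.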

Additional observations from a re-analysis of the deposited data

Results flagged for a closer look

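In 97 groups of values, 7 had 1 tumor far from the others by Dixon's test, which flags about 1 in 20 groups by chance. In quiet ENZR tumors, mouse 21 was low in CDKN1B (28.1 TPM, the others 47.3 to 83.3) and DNAJB9 (19.1 TPM, the others 45.0 to 79.9), mouse 72 was high in RSPH1 (52.7 TPM, the others 11.9 to 24.7) and AC002064.2 (12.4 TPM, the others 4.00 to 7.23), and mouse 23 was low in ARG2 (67.6 TPM, the others 143 to 332). The human TPM total was low in CRPC mouse 43 (77.1%, the others 89.4% to 97.0%) and POST-CX mouse 48 (59.7%, the others 85.1% to 94.4%).

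The relapse steps under enzalutamide and after castration differed, by the test of the difference itself, for LINC00844 (-4.19), GRIN3A (-3.04), KLK3 (-2.42), AL589986.2 (-2.14), GAPLINC (-2.12), PART1 (-1.24) and KLK4 (-1.20), and in the other direction for BCAP31P1 (2.83), FAM13A (2.02), NUDT8 (1.74), GPR63 (1.57) and ACKR3 (1.56). GRIN3A and BCAP31P1 were too low to be tested in the enzalutamide step alone, so their values restate the castration step for the most part. Each step was 1 arm of tumors collected at its own PSA state, and the arms also differ in the level of the division markers, which cannot be told apart from the step.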

How the results depend on the processing

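No gene was called between quiet ENZR and ENZS tumors under any of the 18 alternatives or the 22 omissions of 1 tumor. All 104 list medians kept within the spread between tumors with deposited or centred values, and the human total kept its direction (p between 0.0767 and 0.461 over 22 omissions).

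The castration step called 34 genes. The count was 15 with no filter, 10 with a filter at 5 TPM, 16 in one fit of all groups, 75 with tumor weights and 53 with totals of at least 800000 (chosen after seeing the data). The calls were 13 higher and 21 lower, against 29 and 16 with centring and 18 and 11 with the deposited values. Leaving out 1 tumor gave 15 (POST-CX mouse 44 or 86), 16 (POST-CX 66), 17 (POST-CX 92), 21 (CRPC 35), 22 (CRPC 107, CRPC 47 or POST-CX 18) and up to 52 (CRPC 29).

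The difference between the steps called 45 genes. The count was 12 with no filter, 29 with a filter at 5 TPM and in one fit of all groups, 158 with tumor weights and 104 (71 higher, 33 lower) without ENZR mouse 103 and POST-CX mouse 48. With alternatives chosen after seeing the data it was 119 (90 higher, 29 lower) at totals of at least 800000, 27 with all 15 ENZR tumors and 34 with the 14 of adequate total. Leaving out 1 tumor gave 13 (POST-CX mouse 66 or 92), 16 (CRPC 35 or 47), 18 (POST-CX 86), 20 (ENZR 72 or POST-CX 44), 22 (ENZS 6), 23 (ENZS 106 or CRPC 107), 24 (ENZS 76 or POST-CX 18), 25 (ENZS 45), 26 (ENZR 105), 27 (ENZR 95), 28 (POST-CX 99), 68 (ENZR 23 or ENZS 49), 76 (CRPC 29) and 88 (POST-CX 48). The cause was not tested. LINC00844 and FAM13A were called under all 12 alternatives.

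The sign of quiet ENZR minus ENZS turned for 10 named genes, none of them called. With all 14 ENZR tumors of adequate total they were 0.080 for KLK2, -0.17 for NR3C1, -0.14 for ERBB2, -0.0042 for CDKN1A, -0.46 for DDC, -0.54 for AOC1, -0.11 for GRB10 and 0.26 for AL589986.2. With all 15 they were -0.23 for NR3C1, -0.18 for ERBB2, -0.42 for DDC, -0.58 for AOC1, -0.12 for GRB10 and 0.13 for AL589986.2. Leaving out 3 highest ENZR tumors gave -0.017 for ERBB2 and -0.021 for DDC. Without ENZR mouse 103 it was -0.0060 for CDKN1A and 0.044 for OPRK1, and at totals of at least 800000 it was -0.11 for CDKN1A and 0.13 for CCND1. Without ENZS mouse 45 (chosen after seeing the data) it was -0.034 for ERBB2. ERBB2 was -0.018 with deposited values and OPRK1 0.18 with the marker level as covariate. Leaving out 1 tumor gave ranges of -0.012 to 0.28 for CDKN1A, -0.034 to 0.12 for ERBB2 and -0.32 to 0.056 for OPRK1.

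No paired analysis was possible because the mouse numbers of the groups are not shared. TPM values carry no read counts, so differences of genes near 1 TPM are limited by a depth that is unknown.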
